A study of Mus musculus with 4 samples.

Results

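The genes described here are 10 members of the YAP/TAZ pathway, measured in unstimulated cells of 2 mouse fibroblast lines on Affymetrix mouse whole-genome expression arrays. They were taken as every probe set whose platform gene symbol was Ccn1, Ccn2, Ankrd1, Amotl2, Yap1, Wwtr1, Tead1, Tead2, Lats2 or Ajuba, which gave 23 of 45037 probe sets and 10 of 18193 named genes. L929, a line derived from mouse connective tissue, was set against NIH3T3, a line derived from mouse embryos, with 2 arrays of each, and neither line received a stimulus or carried a stated genetic change. The series set them side by side as a line that dies by necrosis and a line that dies by apoptosis. Each line stands for itself alone, and the labels do not say whether the replicates were separate cultures, so the spread given here may be technical. The genes were chosen with the L929 minus NIH3T3 differences of these same arrays known, so their values are given as a description. Where calls from the fit over all probe sets are counted for them, the counts also only describe.

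YAP1 and TAZ, the product of Wwtr1, are transcriptional co-activators that bind no DNA themselves and act through the TEAD factors. The Hippo kinases, ending in LATS1 and LATS2, phosphorylate them, which keeps them in the cytoplasm or sends them to degradation. In fibroblasts they respond to stiff matrix, cell spreading and actomyosin tension, and the matricellular proteins CCN1 and CCN2 and the ankyrin-repeat protein ANKRD1 are the targets most often used to read them out. AMOTL2 and LATS2 are both targets and inhibitors, and the LIM protein AJUBA binds and restrains the LATS kinases. Their activity is set largely by phosphorylation and location, which RNA levels do not measure.

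The sequences before the transcription starts of the target genes are shown because TEAD factors recognise a short motif, GGAATG on 1 strand and CATTCC on the other. RefSeq promoters of build GRCm38.p6 were matched for 8 of the 10 genes, all but Ccn2 and Tead1, and the 250 bases before each start were searched on both strands. Capitals mark the motif. Ccn1 lies at chr3:145649986-145650235 on the minus strand and holds 1 match, and Ankrd1 lies at chr19:36119845-36120094 on the minus strand and holds 2.
Ccn1: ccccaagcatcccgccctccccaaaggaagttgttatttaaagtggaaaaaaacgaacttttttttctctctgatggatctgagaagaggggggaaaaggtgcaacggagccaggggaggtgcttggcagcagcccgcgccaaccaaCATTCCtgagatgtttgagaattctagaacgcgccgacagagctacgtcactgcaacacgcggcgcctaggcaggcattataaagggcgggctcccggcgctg
Ankrd1: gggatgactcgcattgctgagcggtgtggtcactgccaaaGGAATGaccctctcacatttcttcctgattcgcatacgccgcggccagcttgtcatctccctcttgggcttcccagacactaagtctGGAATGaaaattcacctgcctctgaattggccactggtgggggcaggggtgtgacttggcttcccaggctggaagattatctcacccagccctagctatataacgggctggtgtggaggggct
In the sense direction the Ccn1 match begins 103 bases before the start, and the Ankrd1 matches begin 210 and 123 bases before it. Ccn1 also holds TATAAA on the sense strand, beginning 25 bases before the start.

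The remaining matches are given as windows of 30 bases, with 12 bases on either side, for Amotl2 (chr9:102717727-102717756, plus strand), Yap1 (chr9:8004720-8004749, minus strand), Wwtr1 (chr3:57576029-57576058, minus strand) and Ajuba (chr14:54577830-54577859 and chr14:54577808-54577837, minus strand).
Amotl2: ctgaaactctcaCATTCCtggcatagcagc
Yap1: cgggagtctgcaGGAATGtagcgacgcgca
Wwtr1: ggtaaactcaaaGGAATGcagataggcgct
Ajuba, distal: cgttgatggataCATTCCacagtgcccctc
Ajuba, proximal: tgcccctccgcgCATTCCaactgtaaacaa
The pair in Ajuba begins 22 bases apart and the pair in Ankrd1 87 bases apart. Thus 6 of the 8 genes held the letters, among both targets and regulators, and the listed starts of Tead2 and Lats2 did not. Over all promoters of the same length, 14.4% of 27025 genes and 12.6% of 32851 starts held them. The AP-1 letters TGANTCA, present in 7.82% of genes, and the CArG box, present in 1.62%, were found in 0 of the 8. These matches are letters in a window and no measure of binding, and absence says nothing of the factor.

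Each value below is a MAS5 signal in arbitrary units, after scaling the arrays to a common trimmed mean. As deposited the trimmed means were 142 and 135 for L929, against 135 and 210 for NIH3T3, whose replicate 2 was thus the brightest before scaling. Pearson correlations of log2 signals were 0.982 between the L929 arrays, 0.981 between the NIH3T3 arrays and 0.835 to 0.843 across lines. Probe sets are not independent, so these only describe the arrays. A level of 17.3 served to filter out dim probe sets. It is the signal that 40% of all values fall under, and no detection limit. Both arrays of each line lay above it for 10 of 12 fibroblast markers in L929 and 12 of 12 in NIH3T3, and the 2 exceptions were Dcn (decorin) at 19.0 and 2.78 and Lum (lumican) at 13.4 and 22.7 in L929. The summed signals of 7 epithelial markers were 134 and 139 in L929 and 138 and 159 in NIH3T3, and those of 6 endothelial markers 70.4 and 92.5 in L929 and 88.2 and 62.3 in NIH3T3. The 7 leukocyte markers on the array summed to 202 and 195 in L929 and 204 and 226 in NIH3T3. Both arrays of a line lay above the level for 2 of 7 epithelial markers in each line. For the endothelial markers this held for 1 of 6 in L929 and 0 in NIH3T3. For the leukocyte markers it held for 4 of 7 in L929 and 3 of 7 in NIH3T3. Of the leukocyte markers, Lyz2 gave 36.9 and 43.5 in L929 and 17.3 and 6.25 in NIH3T3. Cd68 gave 32.6 and 30.6 in L929 and 66.6 and 64.1 in NIH3T3. The fibroblast markers summed to 43575 and 45384 in L929 and 48769 and 37328 in NIH3T3. These sums hide differences in both directions, beyond those of Dcn and Lum. Pdgfra was 5.41-fold and Fn1 2.39-fold lower in L929, while Pdgfrb was 1.99-fold and Col5a1 1.51-fold higher. In such bulk samples of a cell line, fewer cells expressing a gene and less of its RNA per cell cannot be told apart.

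Of the 10 genes, Ccn2 gave the widest contrast between the lines, while the probe sets of Ccn1 disagreed in direction. Ccn2, or connective tissue growth factor, had signals of 2.64 and 9.45 in L929 and of 3040 and 2393 in NIH3T3. Both L929 arrays lay below the filter level and both NIH3T3 arrays far above it, so Ccn2 was at least 156-fold lower in L929, taking the mean log2 signal of NIH3T3 against that level. The means were 6.04 ± 4.82 in L929 and 2716 ± 457 in NIH3T3 (SD, n = 2 each). With a log2 difference of -7.63 it stood 7th from the lowest of 12676 genes, and it rests on 1 probe set, 1416953_at.

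Ccn1, or CYR61, was read by 4 probe sets that split into opposite pairs. The brightest, 1416039_x_at, gave 1208 and 1139 in L929 and 2091 and 1698 in NIH3T3, a log2 difference of -0.68. Probe set 1438133_a_at gave 774 and 814 in L929, against 1485 and 1512 in NIH3T3, a difference of -0.91. For both, each L929 array lay below each NIH3T3 array. In the other pair the order was the opposite. Probe set 1442340_x_at gave 377 and 489 in L929 and 57.4 and 68.0 in NIH3T3, a difference of 2.63. Probe set 1457823_at gave 360 and 442 in L929 and 53.6 and 74.1 in NIH3T3, a difference of 2.52. Again no array of one line overlapped the other. The platform annotation derives this second pair from a single sequence record, so the pair is not 2 independent readings, and where it lies in the gene was not analysed here. An _x_at name marks a probe set with probes that can match other sequences, and it occurs in both pairs. Which pair follows the Ccn1 transcript was not tested, so the direction of Ccn1 is uncertain, although the probe set chosen by brightness puts it 1.60-fold lower in L929.

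Ankrd1, a target in muscle and fibroblasts whose product shuttles between sarcomere or cytoplasm and nucleus, was higher in L929 by both of its probe sets. Probe set 1420991_at gave 1274 and 1298 in L929, against 635 and 583 in NIH3T3, and 1420992_at gave 1220 and 1355 in L929, against 559 and 521 in NIH3T3. Neither probe set overlapped between the lines, and the differences were 1.07 and 1.24 on the log2 scale, or 2.10-fold and 2.36-fold. The first averaged 1286 ± 16.8 in L929 and 609 ± 36.9 in NIH3T3 (SD, n = 2 each). Ankrd1 and Ccn2, both read as YAP/TAZ targets, therefore lay on opposite sides.

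**Figure D1:**
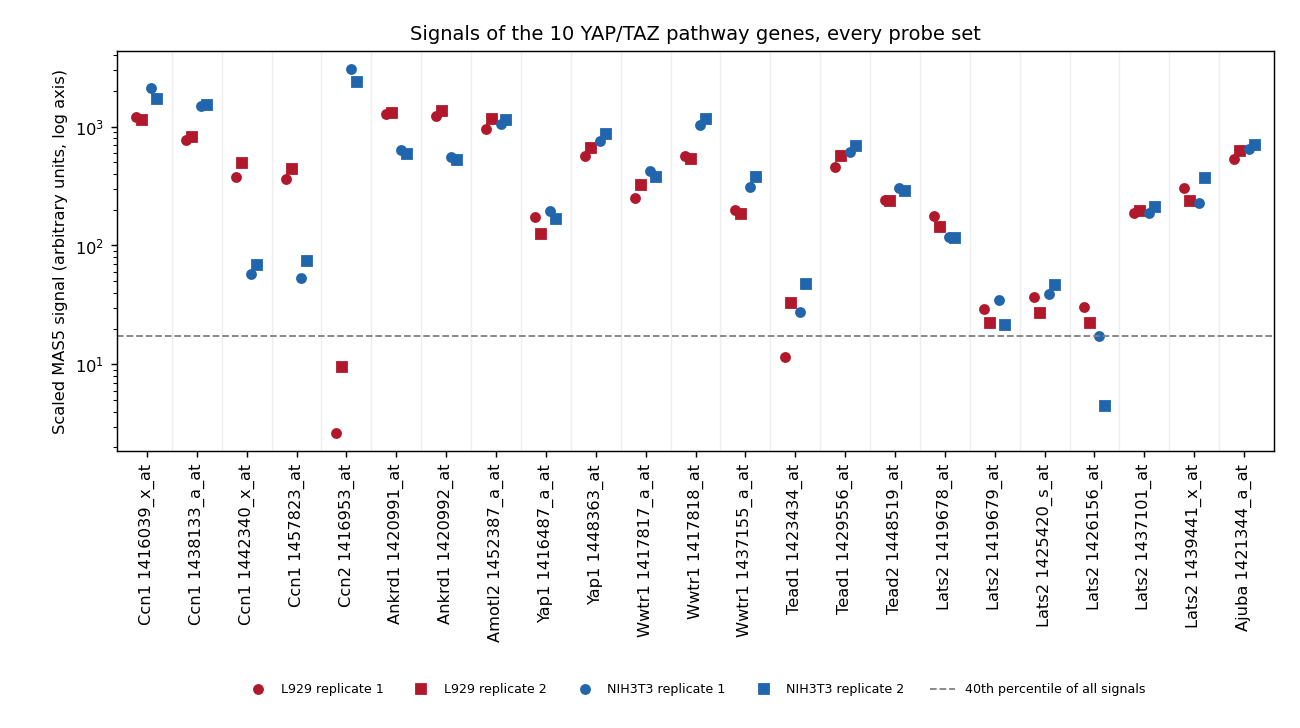
Scaled MAS5 signal of each of the 23 probe sets of the 10 genes on a log axis, with 2 L929 arrays (red) to the left of 2 NIH3T3 arrays (blue). Ccn2 falls below the dashed filter level of 17.3 in L929, the 4 Ccn1 probe sets split into opposite pairs, and Ankrd1 is higher in L929 by both probe sets.

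Amotl2, an angiomotin that binds YAP and is itself induced by it, was bright and overlapped between the lines. Its 1 probe set gave 957 and 1169 in L929 and 1053 and 1145 in NIH3T3, a log2 difference of -0.05, smaller than the SD of 0.16 within lines. Lats2, the kinase that closes the feedback loop, was read by 6 probe sets of its own, and they disagreed in sign. The brightest, 1439441_x_at, gave 303 and 237 in L929, against 228 and 369 in NIH3T3, with overlapping arrays and a difference of -0.11. The others ranged from -0.34 for 1425420_s_at to 0.95 for 1426156_at, and 1426156_at lay above the filter level on 1 of 2 NIH3T3 arrays, with 30.4 and 22.5 in L929 and 17.3 and 4.44 in NIH3T3. Probe set 1419678_at was higher in L929 without overlap, at 176 and 142 in L929 and 117 and 116 in NIH3T3. The arrays of 1426156_at, also higher in L929, did not overlap either. Probe set 1425420_s_at was lower in L929 without overlap, at 37.1 and 27.0 in L929 and 38.8 and 46.2 in NIH3T3. The arrays of 1437101_at and 1419679_at overlapped, with differences of -0.05 and -0.08. A seventh probe set, annotated to both Xpo4 and Lats2, gave 191 and 221 in L929 and 227 and 141 in NIH3T3 and is assigned to neither gene.

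Of the co-activators, Wwtr1 was lower in L929 by all 3 of its probe sets and Yap1 differed less. Probe set 1417818_at of Wwtr1 gave 569 and 538 in L929 and 1040 and 1166 in NIH3T3, a log2 difference of -0.98 between means of 554 ± 22.1 in L929 and 1103 ± 89.4 in NIH3T3 (SD, n = 2 each). Probe set 1437155_a_at gave 199 and 183 in L929 and 311 and 378 in NIH3T3, a difference of -0.82. Probe set 1417817_a_at gave 251 and 321 in L929 and 424 and 378 in NIH3T3, a difference of -0.48. No Wwtr1 probe set overlapped between the lines. Yap1 gave 565 and 657 in L929 and 763 and 859 in NIH3T3 by 1448363_at, a difference of -0.41 without overlap. Its dimmer probe set, 1416487_a_at, gave 174 and 124 in L929 and 196 and 166 in NIH3T3, a difference of -0.28 in which the arrays overlapped. Signals of both co-activators lay above the filter level on all 4 arrays.

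Tead1 and Tead2, factors that carry YAP and TAZ to DNA, and Ajuba had lower means in L929, by differences under the fold threshold for the brightest probe set of each. Tead1 gave 456 and 563 in L929, against 612 and 684 in NIH3T3, by 1429556_at, a log2 difference of -0.35 with the arrays apart. Its second probe set, 1423434_at, was dim, at 11.5 and 32.8 in L929 and 27.3 and 47.7 in NIH3T3, and its arrays overlapped. That probe set differed by -0.65, or 1.57-fold, with an SD of 0.63 within lines. Tead2 gave 241 and 239 in L929 and 303 and 288 in NIH3T3, a difference of -0.29, or 1.22-fold, with the arrays apart. Its SD within lines, 0.036, is the lowest among the member probe sets and rests on 2 arrays per line. Ajuba gave 529 and 621 in L929, against 642 and 701 in NIH3T3, a difference of -0.23, with the nearest arrays of the lines at 621 and 642.

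**Figure D2:**
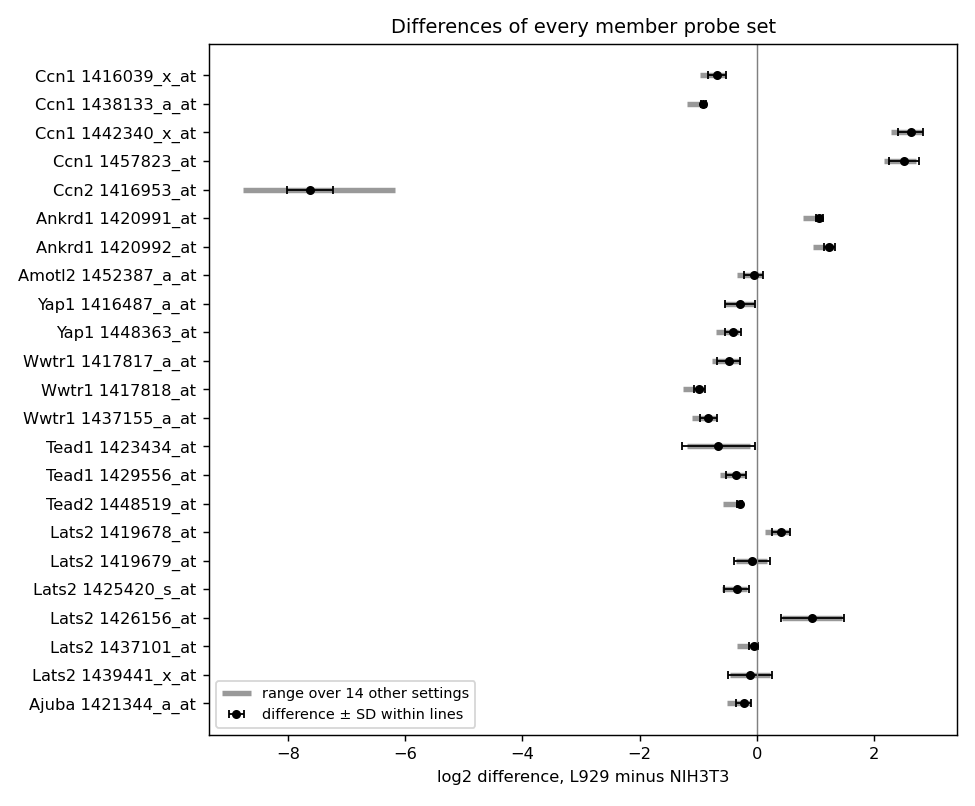
The log2 difference, L929 minus NIH3T3, of each member probe set (points, with the SD within lines as bars) and its range over 14 other processing settings (grey). Ccn2 stands apart at -7.63, 2 Ccn1 and 2 Ankrd1 probe sets lie above 1, and the Amotl2 bar and 3 of the Lats2 bars span 0.

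Over the 10 genes, differences were negative for 17 probe sets and positive for 6, with a median of -0.28, against -0.01 over all tested probe sets. The SD within lines ranged from 0.036 to 0.63 on the log2 scale, with a median of 0.16. A probe set was called when the limma fit gave a Benjamini-Hochberg adjusted p under 0.05 and a fold above 1.5. By that rule 4 of the 23 probe sets were called higher and 5 lower, or 39.1%, against 31.6% of all 27438 tested probe sets, of which 14.9% were called higher and 16.7% lower. At 1 probe set per gene, Ankrd1 was called higher and Ccn1, Ccn2 and Wwtr1 lower, which is 4 of 10, against 35.2% of 12676 genes, with 17.4% higher and 17.8% lower. With Ccn1 read by its other pair of probe sets, 2 genes would be higher and 2 lower. The lines did not overlap for 17 of the 23, or 73.9%, against 69.9% of all tested probe sets. Since the same contrast chose the genes, nothing is read from these shares, and all 23 probe sets passed the filter on low signals.

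Patterns most like those of the 3 main targets were sought over the 4 arrays, as the root mean square difference of log2 signals centred on each gene's mean. For Ccn2 the nearest were Crabp1, a retinoic acid carrier, at 0.25, then Lox, the collagen-crosslinking lysyl oxidase, Tmsb4x, an actin-sequestering thymosin, Ramp3, a receptor accessory protein, and Ubqln2, a ubiquilin, at up to 0.30. Lox was at least 258-fold and Crabp1 at least 182-fold lower in L929. For Ccn1 by its brightest probe set the nearest were Blvrb, Enc1, Psmd11, Ppil2 and Tceal9, at 0.011 to 0.024, with differences of -0.70 to -0.67. For Ankrd1 they were Mybl2, Hivep1, Tmem14c, Wipi2 and Gemin2, at 0.0089 to 0.019, with differences of 1.05 to 1.10. With 4 arrays in 2 lines, such a measure mostly matches the size of the line difference.

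In a wider set of target genes more were called lower in L929 than higher. It held the mouse counterparts of a published human YAP/TAZ target signature, taken whole apart from the 5 that are members. Of 17 genes, 15 were tested, 8 were called lower and 1 higher, with a median log2 difference of -0.72, against 0.01 over all 12676 genes, of which 17.8% were called lower and 17.4% higher. Axl, a receptor tyrosine kinase, gave 277 and 319 in L929 and 2626 and 2390 in NIH3T3, 8.23-fold lower (log2 difference -3.04, SE 0.12, limma adjusted p = 3.8e-07). Ccdc80, a secreted matrix protein, gave 27.6 and 29.2 in L929 and 386 and 433 in NIH3T3, 11.4-fold lower (limma adjusted p = 1.03e-06). For neither gene did the lines come near each other. Rbms3, an RNA-binding protein, gave 13.7 and 14.6 in L929, against 286 and 321 in NIH3T3, at least 17.5-fold lower (limma adjusted p = 2e-06). Crim1, a transmembrane protein with BMP-binding repeats, gave 19.0 and 4.14 in L929 and 622 and 541 in NIH3T3, with L929 replicate 1 alone above the filter level in that line (limma adjusted p = 7.97e-06). With the median over the probe sets of each gene, Crim1 differed by -3.66 and Rbms3 by -2.73, against -5.02 and -3.81. The 4 further lower genes differed by -3.02 to -0.63. The gene called higher was Gadd45a, a stress-induced growth arrest gene, at 387 and 377 in L929 and 139 and 126 in NIH3T3, 2.78-fold higher (limma adjusted p = 2.88e-05). The 6 genes not called ranged from -0.82 for Tgfb2 to 0.50 for Nt5e, each with 1 array under the filter level. Another of them, Arhgef17, had 4 tested probe sets from -0.63 to 1.06, with 1 called higher and 0 lower. Many of these genes respond to other pathways too, and the list gives counts, with no test of the list itself.

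**Figure D3:**
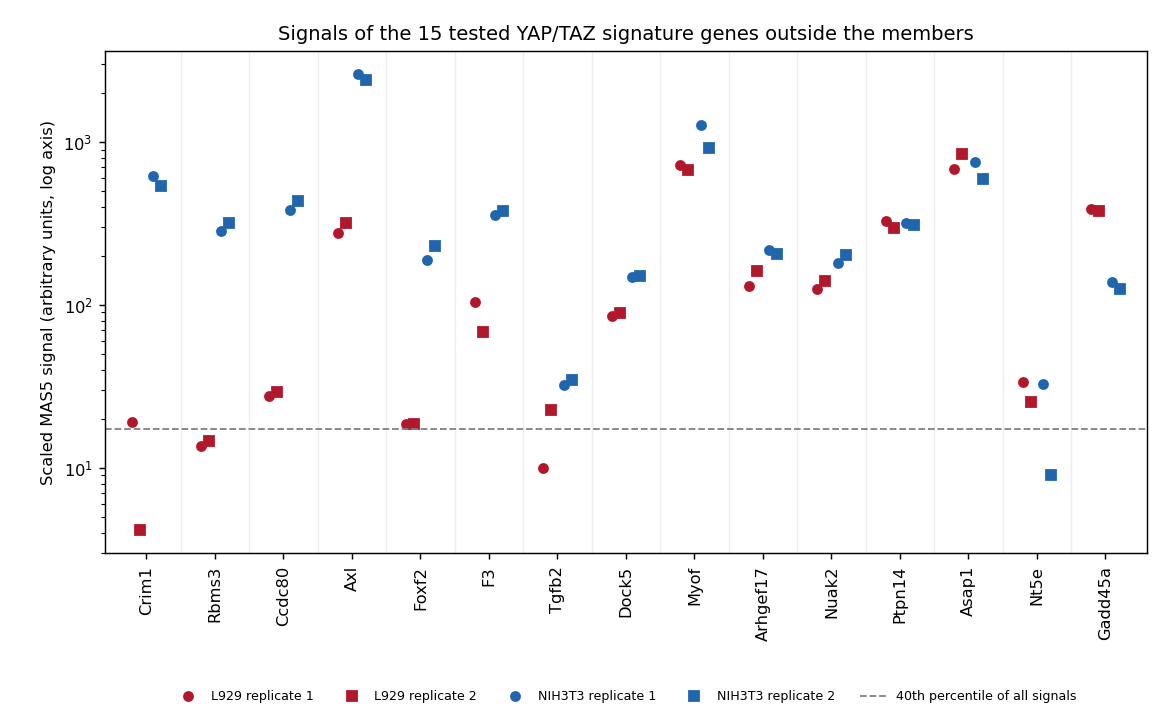
Scaled MAS5 signals on a log axis of the 15 tested signature genes outside the 10 members, ordered by their log2 difference, with L929 arrays (red) left of NIH3T3 arrays (blue). The genes at the left, from Crim1 to F3, lie far lower in L929, and Gadd45a at the right is higher in L929.

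Of the 4 other CCN genes, 2 were bright enough to be tested, and 1 of them was called. Ccn4, a Wnt-induced matricellular protein, gave 350 and 378 in L929 and 176 and 170 in NIH3T3, 2.05-fold higher (limma adjusted p = 1.67e-04), a call lost without scaling, at 0.76. Ccn5 was dim, at 15.8 and 14.9 in L929 and 28.8 and 31.2 in NIH3T3, a log2 difference of -0.70 with the arrays apart, and was not called (limma adjusted p = 0.0704).

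Regulators of the pathway outside the 10 genes were called in both directions. Over the 6 lists together, 98 genes were listed, 83 tested, 26 called lower and 10 higher, or 43.4%, against 35.2% of all tested genes, with a median log2 difference of -0.15. In the core kinase module 3 of 16 tested genes were lower and 1 higher, with a median of 0.09. Stk38l, a LATS-related kinase, was 2.63-fold lower (log2 difference -1.39, limma adjusted p = 4.37e-04), and its median over probe sets was -2.55. The LATS co-activator Mob1b was 1.82-fold lower (limma adjusted p = 8.02e-04), and its second probe set differed by -0.05. Taok3, a kinase acting above the cascade, was 1.67-fold lower, and Stk25 was 1.83-fold higher (limma adjusted p = 0.00406 and 0.00261). The Taok3 call was lost without L929 replicate 2, where its difference was -0.56. The Mob1b and Taok3 calls were lost with the median over probe sets (-0.46 and -0.45), and those of Stk25, Mob1b and Taok3 without scaling (0.59, -1.15 and -1.01). The 12 others, from -0.47 to 0.57, included Lats1 at -0.12.

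Among membrane and polarity regulators 8 of 19 tested genes were lower and 3 higher in L929, and the angiomotins split. Amot gave 174 and 214 in L929 and 351 and 445 in NIH3T3, 2.01-fold lower (limma adjusted p = 9.49e-04). Amotl1 gave 583 and 637 in L929 and 274 and 270 in NIH3T3, 2.21-fold higher (limma adjusted p = 5.69e-05). The Amot call was lost with the median over its probe sets, at -0.58, and the Amotl1 call without scaling, at 0.86, and neither changed direction. The arrays of Amotl2, the third paralogue, overlapped between the lines. Wwc1, or KIBRA, a scaffold that promotes LATS activation, gave 18.4 and 29.5 in L929 and 119 and 158 in NIH3T3, 4.61-fold lower (limma adjusted p = 2.34e-04). The polarity scaffold Patj was at least 2.52-fold lower and its partner Mpp5, also named PALS1, 1.83-fold lower (limma adjusted p = 0.00105 and 0.00273). The giant cadherin Fat1 was 1.64-fold and the adhesion protein Kirrel 1.57-fold higher (limma adjusted p = 7.76e-04 and 0.00201). The Kirrel call was lost without NIH3T3 replicate 1, at 0.54, and with the median over probe sets, at 0.49. Without scaling, the calls of Fat1 (0.42), Kirrel (0.37) and Mpp5 (-1.14) were lost. The 4 further lower genes differed by -0.84 to -0.60. The median of the list was -0.29.

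STRIPAK, the phosphatase complex that opposes the MST and MAP4K kinases, had 3 of 12 tested genes higher and 2 lower, with a median of -0.13. Strn4, Sike1 and Fgfr1op2 were 1.92-fold, 1.89-fold and 1.54-fold higher, and Pdcd10 and Slmap 1.60-fold and 1.52-fold lower (limma adjusted p = 2.21e-04 to 0.00372). The Fgfr1op2 call was lost without L929 replicate 1 (0.54) and without NIH3T3 replicate 1 (0.50), and the Slmap call without L929 replicate 1 (-0.55) and without NIH3T3 replicate 2 (-0.52). With the median over probe sets Fgfr1op2 stood at 0.05, with 1 of its 3 probe sets at -0.05, and Slmap stood at -0.41, both uncalled. Without scaling all 5 calls were lost, at 0.66 for Strn4, 0.64 for Sike1, 0.34 for Fgfr1op2, -0.96 for Pdcd10 and -0.89 for Slmap. At 1 probe set per gene, 4 of 15 nuclear partners, 14-3-3 anchors and turnover factors were lower and 0 higher. The median of that list was -0.26. Among its 14-3-3 genes not called, 4 of the 6 tested probe sets of Ywhab and 1 of the 7 of Ywhaz were called higher. Called lower were 2 of the 8 of Ywhaq and 1 of the 4 of Ywhae. Csnk1d, also not called, had 1 of its 5 tested probe sets called lower. In this list 1 gene was called higher with the median over probe sets, and likewise without NIH3T3 replicate 1 or replicate 2. Tead4 gave 23.1 and 35.4 in L929, against 127 and 114 in NIH3T3, 3.50-fold lower (limma adjusted p = 4.78e-04), and Tead3 was 1.69-fold lower (limma adjusted p = 0.00559). The TEAD-binding cofactor Vgll3 was 1.50-fold lower by its brightest probe set, just past the fold threshold (limma adjusted p = 0.0148). Its 3 tested probe sets ranged from -1.78 to -0.59. The 14-3-3 gene Ywhag was 1.67-fold lower (limma adjusted p = 0.0015). The Vgll3 call was lost without L929 replicate 2 (-0.54) and without NIH3T3 replicate 2 (-0.35), and the Tead3 and Vgll3 calls without scaling (-1.03 and -0.87). All 4 TEAD genes thus had a lower mean in L929, with Tead3 and Tead4 called. By the brightest probe set of each, Tead1 and Tead2 stayed under the fold threshold.

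The LIM adaptors related to Ajuba held some of the widest differences among the regulators. Wtip, of the Ajuba family, gave 0.762 and 1.08 in L929 and 351 and 331 in NIH3T3, at least 19.8-fold lower (limma adjusted p = 8.06e-07). Lpp, of the zyxin family, was 4.78-fold lower at 264 and 317 in L929 and 1451 and 1378 in NIH3T3 (limma adjusted p = 2.1e-06), and its 8 tested probe sets ranged from -2.78 to -0.22. Zyx, or zyxin, a focal adhesion protein that responds to tension, was 2.48-fold lower (limma adjusted p = 1.58e-04). Limd1 and Trip6, at 0.53 and 0.33 by the brightest probe set of each, stayed under the fold threshold. The other of the 2 tested Limd1 probe sets differed by 0.59 and was called higher. At 1 probe set per gene the list thus had 3 of 5 tested genes lower and 0 higher, with a median of -1.31. With median scaling 1 gene of the list was called higher.

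**Figure D4:**
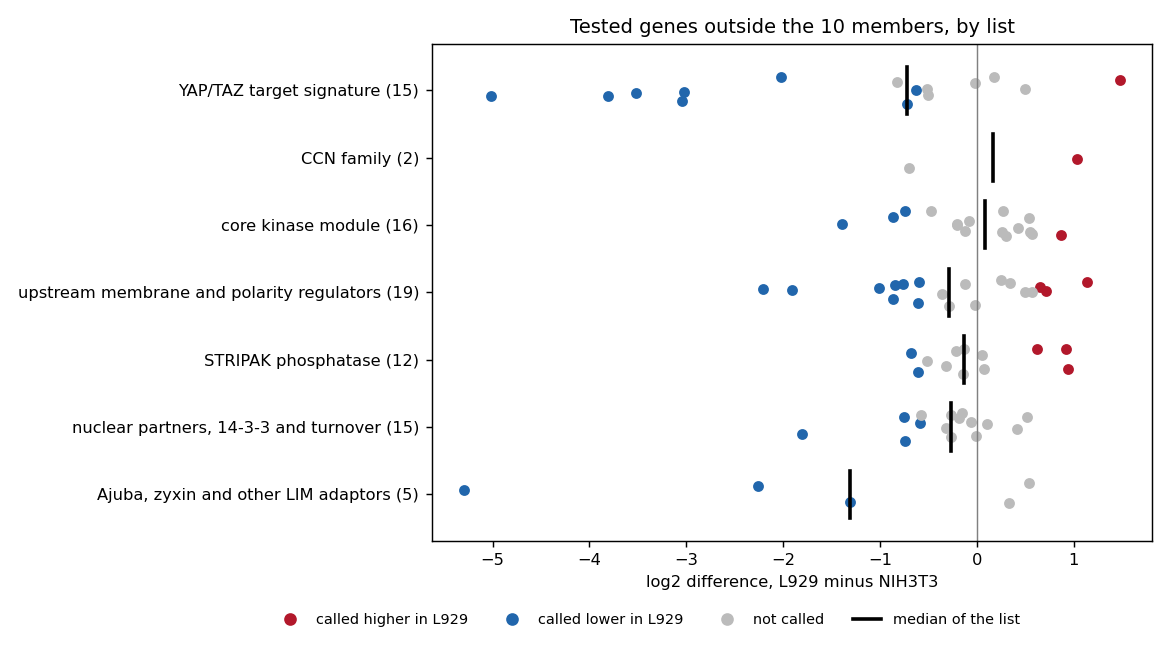
The log2 difference, L929 minus NIH3T3, of each tested gene of 7 lists outside the 10 members, with the number tested in brackets, coloured by its call, and with the list's median as a black bar. Called genes lie on both sides in most lists, and the signature and LIM adaptor lists have the lowest medians, at -0.72 and -1.31.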

How the data were processed

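Total RNA of L929 and NIH3T3 cells, 2 arrays each, was extracted with Trizol and RNeasy columns and labelled with biotin, per the labels' protocols. The deposited intensities are MAS5 signals on a linear scale, 1 per probe set, per the submitters' processing notes, while the version and target scale are not given in the sources. Lines and replicate numbers came from the sample titles. Of 45037 non-control probe sets, 34945 had 1 gene symbol in the platform annotation, 932 several and 9160 none, and only those with 1 symbol were named.

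Arrays were scaled to a common mean trimmed by 2% at each end, an offset of 8.01 (25th percentile) was added and log2 taken. Fold changes on this scale understate those of dim genes. Probe sets with both arrays of at least 1 line above 17.3 (40th percentile) were fitted with lmFit and eBayes (trend) of limma 3.58.1 in R 4.3.3, over all 4 arrays. For genes, the brightest tested probe set on average was used and p-values were adjusted over 12676 genes. A line below 17.3 on both arrays gives a fold as a bound, the bright line's mean log2 signal against 17.3. The procedure was tested on simulated data. The known changes were placed only in brighter probe sets, so that test does not cover genes near the floor in 1 line. Alternatives changed the scaling, offset, filter, variance trend, probe set choice and replicate block, or left out an array. Precision is limited by the small number of arrays.

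The members, the lists and the tests were chosen with earlier results of these data known. Outside the members, the genes named are up to 4 called genes per direction of each list, ordered by absolute difference, the 5 genes most like each of 3 targets, and markers. Lats1, Limd1, Trip6, Ccn5, Ywhab, Ywhae, Ywhaq, Ywhaz, Csnk1d, Arhgef17, Tgfb2 and Nt5e fall outside this rule and were chosen after their values were seen. The results of 1 of the 6 regulator lists, which the pooled count includes, are not reported here.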

Additional observations from a re-analysis of the deposited data

How the results depend on the processing

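The differences of the 23 member probe sets were recomputed under 14 other settings each, 322 values in all, of which 295 moved by less than the SD within lines and 27 by more. Of these 27, 18 came without scaling, where the median difference of all genes was -0.26, against 0.01. No called member probe set changed sign. Signs that did change belonged to Amotl2 (-0.34 to 0.09) and to the Lats2 probe sets 1419679_at (-0.35 to 0.18), 1437101_at (-0.33 to 0.02) and 1439441_x_at (-0.45 to 0.23). Ccn2 ranged from -8.77 to -6.17. Without scaling, 5206 probe sets were called (1484 higher) and 2675 genes (839 higher), against 8673 (4091 higher) and 4464 (2209 higher), so that 31.4% of the called genes were higher, against 49.5%. In the same setting 18 regulators were called, 17 lower and 1 higher, and 0 CCN genes, so 0 were higher, while the signature counts, 6 to 9 lower and 1 higher over every setting run, stayed within 1.5 times theirs. With median scaling 16 regulators were higher, and without the variance trend 2 CCN genes were called, 1 of them lower. Leaving out 1 array gave 7433 to 7883 probe sets called (3490 to 3818 higher, 3675 to 4391 lower), 4143 to 4270 genes (1988 to 2171 higher, 1972 to 2248 lower), 7 to 9 signature genes lower and 1 higher, and 22 to 24 regulators lower and 8 to 14 higher. The cause of these shifts was not tested. Among the 29 other called genes named from the lists, 13 kept their call under every setting in which they were tested. Of 434 values, 34 lost the call, 15 of them without scaling. The replicate numbers mark no stated pairing: deviations of same-numbered arrays correlated with r = 0.014 over probe sets, and the replicate block gave 8834 probe sets and 4522 genes called. Dim signals limit Tead1 1423434_at, Ccn5 and 3 of the Lats2 probe sets, which lie near the filter level.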
